A study of Drosophila melanogaster with 12 samples.

Results

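Alp4 and NT5E-2 are a pair of Drosophila melanogaster genes for phosphate-removing enzymes of the cell surface, measured here by RNA-seq in the male forelegs of 4 genotypes. The members are the 2 rows of the count table, of 17807 gene rows in all, whose FlyBase identifiers belong to Alp4 (FBgn0016123) and NT5E-2 (FBgn0050104). Both were chosen by their counts in these 12 libraries, among them the level of the hybrid between CO13N and CS, so their levels and differences between strains are a description and carry no test. RNA came from male forelegs of a CS/CO13N hybrid and of the strains CO13N, RG11N and CS, with 3 libraries for each that the labels call biological replicates. The series classes males of CO13N and of the hybrid as selective, and those of RG11N and CS as promiscuous. The labels give no age, no direction or generation of the cross and no number of flies per library. The libraries, made from polyA RNA, hold 26374831 to 36034966 counts over genes.

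Alkaline phosphatases are ectoenzymes that strip phosphate from many small molecules at the outer face of the membrane. In Drosophila, Alp4 is known from the Malpighian tubule and from neuropil of the adult brain. Members of the ecto-5′-nucleotidase family, to which NT5E-2 belongs, remove the phosphate from AMP outside the cell, which yields adenosine, a signal that the fly reads through the receptor AdoR and clears with nucleoside transporters and secreted adenosine deaminases.

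The genes lie on different chromosomes. Alp4 spans chromosome 3R from 31048929 to 31052540 on the plus strand (dm6 coordinates, Ensembl BDGP6 annotation), and its 2 annotated transcripts start from separate first exons and share the 3 exons that follow. The microRNA gene mir-4948 lies on the opposite strand, with all its 106 bp inside a shared Alp4 exon. It had no count in any library, which says nothing of its expression, since how reads over both genes were counted is not stated. NT5E-2 spans chromosome 2R from 17485002 to 17493169 on the plus strand. Its 2 transcripts differ in the length of the first exon, and the longer one ends before an intron of 5805 bp. In the reference genome that intron holds a copy of the F transposable element of 4694 bp, which covers no NT5E-2 exon, and whether the 4 genotypes carry it was not analysed here. The longer first exon, 130 bp, also lies within an exon of CG43110 on the opposite strand. Nextera XT libraries keep no strand, so reads from the genes cannot be told apart over those 130 bp, and the same holds for mir-4948 within Alp4. CG43110 itself stood at 4.1 CPM in the hybrid, 4.34 CPM in CO13N, 4.09 CPM in RG11N and 5.16 CPM in CS.

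Both genes were abundant in the forelegs of the hybrid, CO13N and RG11N and low in those of CS. Levels are given in CPM, read counts brought to a common library size with TMM factors. Values after ± are standard deviations of the 3 libraries of a strain beside CPM, and approximate standard errors beside log2 differences.

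Alp4 had 102, 103.7 and 84.7 CPM in hybrid replicates 1, 2 and 3, and 104.7, 153 and 102 CPM in those of CO13N. RG11N replicates 1, 2 and 3 held 55.9, 43.5 and 52.9 CPM, and those of CS 15.4, 19.8 and 10.7 CPM. The hybrid and CO13N overlapped, every RG11N library lay below both of them, and every CS library lay below RG11N. Strain means were 96.8 CPM ± 10.5 in the hybrid, 120 CPM ± 28.9 in CO13N, 50.8 CPM ± 6.49 in RG11N and 15.3 CPM ± 4.52 in CS (SD, n = 3 each). The CO13N mean was raised by replicate 2, the highest of the 12 libraries.

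NT5E-2 had 50.2, 78.4 and 72.6 CPM in hybrid replicates 1, 2 and 3, and 91.4, 89.2 and 104.5 CPM in those of CO13N. RG11N replicates 1, 2 and 3 held 96.7, 108 and 106 CPM, and those of CS 11.1, 5.68 and 9.61 CPM. Here RG11N and CO13N overlapped at the top, the hybrid lay below both without overlap, and CS was again the lowest. The means were 67 CPM ± 14.9 in the hybrid, 95 CPM ± 8.3 in CO13N, 104 CPM ± 6.13 in RG11N and 8.79 CPM ± 2.79 in CS (SD, n = 3 each). RG11N therefore took a different place for each gene, in the middle for Alp4 and beside CO13N for NT5E-2.

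**Figure D1:**
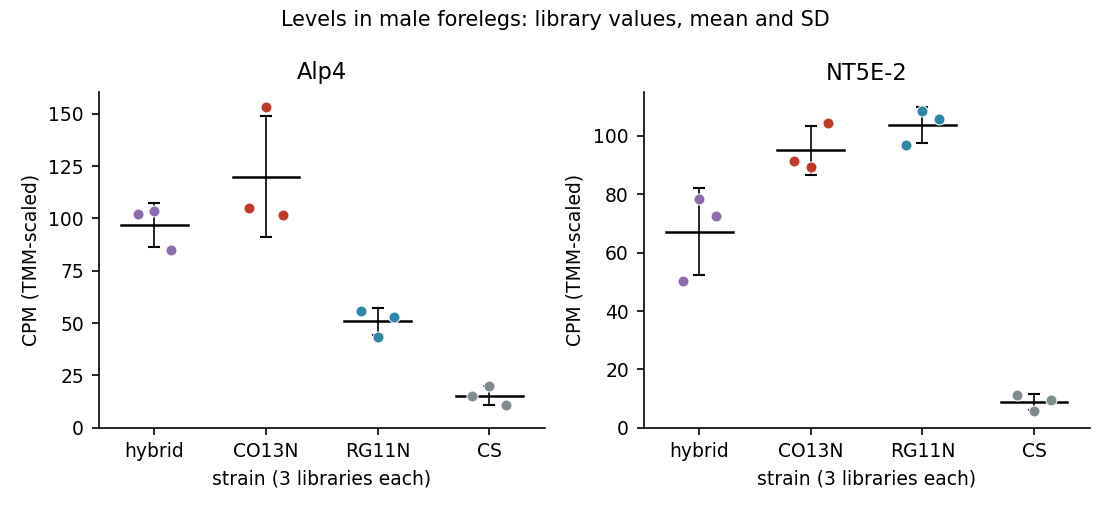
Alp4 (left) and NT5E-2 (right) in CPM in each library of the hybrid, CO13N, RG11N and CS; points are libraries, horizontal bars strain means and whiskers SD of 3 libraries. CS lies lowest for both genes, at no more than 19.8 CPM for Alp4 and 11.1 CPM for NT5E-2, while RG11N lies between for Alp4 and at the top for NT5E-2.

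Differences from CS were large for both genes. Alp4 differed by 2.97 ± 0.22 on the log2 scale in CO13N versus CS, a 7.85-fold difference, and by 2.66 ± 0.22 in the hybrid versus CS and 1.73 ± 0.21 in RG11N versus CS. NT5E-2 differed by 3.43 ± 0.22, 10.8-fold, in CO13N versus CS, by 2.93 ± 0.22 in the hybrid versus CS and by 3.56 ± 0.22 in RG11N versus CS. These comparisons share the CS libraries. For both members no library of the first group overlapped CS in any of them. Among the 10996 genes tested, groups did not overlap for 19.7% in CO13N versus CS, 14.6% in the hybrid versus CS and 21.5% in RG11N versus CS. A larger absolute difference in CO13N versus CS was found for 645 genes in the case of Alp4 and 581 in the case of NT5E-2.

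Against RG11N the members parted. Alp4 stood higher in CO13N (1.24 ± 0.2, 2.36-fold) and in the hybrid (0.93 ± 0.2, 1.91-fold) than in RG11N, without overlap in either comparison. NT5E-2 differed by -0.13 ± 0.2 in CO13N versus RG11N, with overlapping libraries, and by -0.63 ± 0.2 in the hybrid versus RG11N, without overlap. Groups did not overlap for 22.7% of all genes tested in CO13N versus RG11N and 23.3% in the hybrid versus RG11N. Averaged over the classes, selective minus promiscuous, Alp4 differed by 1.95 ± 0.15 and NT5E-2 by 1.4 ± 0.15. For NT5E-2 that average joins large differences from CS with smaller negative ones from RG11N, -0.13 for CO13N and -0.63 for the hybrid. No RG11N library lay below the lowest CO13N library (89.2 CPM), and every RG11N library lay above every hybrid library.

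Per kilobase of exon, the scale on which levels of different genes can be set side by side, both members reached similar maxima. Alp4 stood at 40.1 CPM per kb ± 4.36 in the hybrid, 49.7 ± 12 in CO13N, 21.1 ± 2.69 in RG11N and 6.34 ± 1.87 in CS. NT5E-2 stood at 32.5 CPM per kb ± 7.22 in the hybrid, 46.1 ± 4.02 in CO13N, 50.3 ± 2.97 in RG11N and 4.26 ± 1.35 in CS. The ratio of Alp4 to NT5E-2 ran from 0.997 to 1.74 in hybrid libraries, 0.831 to 1.47 in CO13N and 0.954 to 2.97 in CS. In RG11N it was 0.343 to 0.495, below every library of the other genotypes. Within CS the members did not follow each other: replicate 2 held the highest Alp4 and the lowest NT5E-2 of that strain.

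The hybrid lay between its named parents for both genes and nearer to CO13N. Its position was measured on a scale on which CS is 0 and CO13N is 1. On log2 CPM the 3 hybrid libraries stood at 0.931, 0.939 and 0.841 for Alp4, and the position of their mean was 0.903 ± 0.054 (SD of the 3 libraries). For NT5E-2 they stood at 0.736, 0.921 and 0.889, and their mean at 0.849 ± 0.099. A log2 scale moves any intermediate value of a strongly differing gene toward the higher parent, so the linear scale was used as well. On linear CPM the position was 0.779 ± 0.101 for Alp4 and 0.676 ± 0.173 for NT5E-2, with hybrid replicate 1 at 0.48 for NT5E-2, below the mean of the parents. In CPM, Alp4 averaged 96.8 in the hybrid against a parental mean of 67.6, and NT5E-2 averaged 67 in the hybrid against 51.9.

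The log2 difference of the hybrid from the mean of its parents' log2 levels was 1.18 ± 0.17 for Alp4 and 1.21 ± 0.17 for NT5E-2. That log2 mean lies below the parental mean in CPM given above. These differences are therefore larger than those from the CPM means, and a hybrid at the CPM mean would also lie above it. edgeR's quasi-likelihood test called 0.109% of all genes in that contrast at a Benjamini-Hochberg adjusted p under 0.05. Against CO13N the hybrid differed by -0.31 ± 0.2 for Alp4, with overlapping libraries, and by -0.5 ± 0.2 for NT5E-2, without overlap. Groups did not overlap for 11.5% of all genes in the hybrid versus CO13N. The Alp4 difference rested on 1 library and was -0.09 without CO13N replicate 2. That for NT5E-2 was -0.33 without hybrid replicate 1. As a background, 126 genes were taken that were called and at least 2-fold higher in CO13N versus CS. Both members fall in this set through the values that chose them, and nothing is read from that. The median position of the set was 0.736 (quartiles 0.577 and 0.867) on the log2 scale and 0.533 (0.377 and 0.733) on the linear scale. Alp4 lay above the upper quartile on both scales, and NT5E-2 lay within the quartiles on both.

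**Figure D2:**
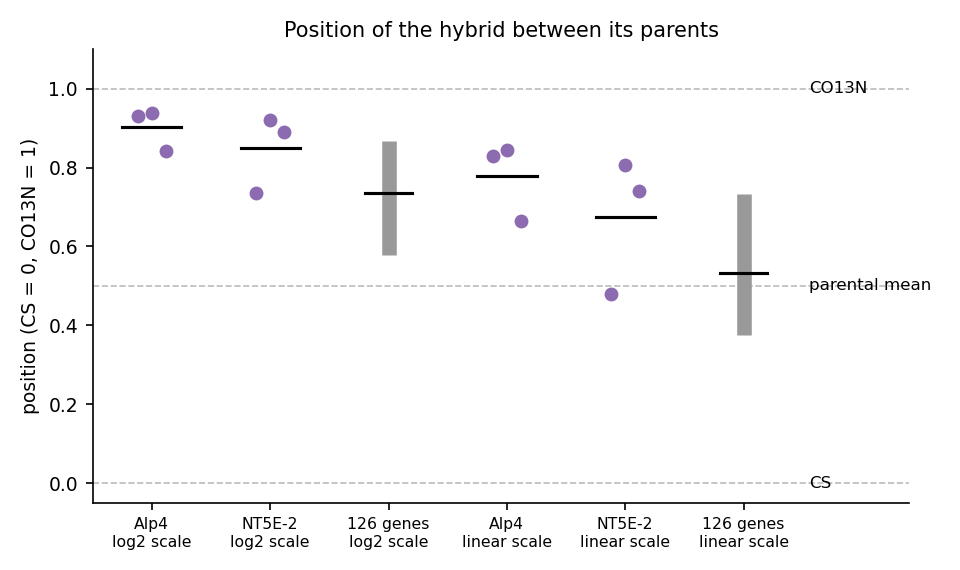
Position of the hybrid on a scale from CS (0) to CO13N (1), on log2 CPM and on linear CPM. Points are the 3 hybrid libraries and bars the position of their mean for Alp4 and NT5E-2; grey boxes give the quartiles and bars the median of the 126 genes called and at least 2-fold higher in CO13N versus CS. Of the 12 positions drawn for the members, the lowest is 0.48, for NT5E-2 in hybrid replicate 1 on the linear scale.

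Alp4 was the alkaline phosphatase gene with the most counts in these libraries, and the highest of them per kilobase of exon by strain mean. The family has 13 genes in the table, and Alp4 took 85.3 to 91.2% of their summed counts in the hybrid, 88.8 to 94.7% in CO13N, 79.5 to 82.4% in RG11N and 53.2 to 62.8% in CS. The next was Alp12, with 10.2 CPM ± 1.51 in the hybrid, 8.67 ± 2.64 in CO13N, 10.8 ± 1.75 in RG11N and 9.39 ± 4.87 in CS (SD, n = 3 each). Its groups overlapped in every pair, and it differed by -0.11 ± 0.34 in CO13N versus CS and by 0.12 ± 0.34 in the hybrid versus CS. The lower share of Alp4 in CS stood beside a lower Alp4 level and an Alp12 level that overlapped the other genotypes. Alp2, Alp6, Alp7 and Alp9 had no count in any library, and 3 counts, the limit that a count of 0 allows, come to 0.0833 to 0.114 CPM depending on the library (counting error only). Alp1, Alp5, Alp8, Alp10, Alp11, Alp13 and phu stayed at or below 1.78 CPM in every library.

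Besides Alp4, 5 of the other 12 family genes passed the filter on low counts, namely phu, Alp5, Alp8, Alp11 and Alp12. edgeR called 0 of these 5 in each of the 8 comparisons, as did DESeq2 and voom, with 0 at an unadjusted p under 0.05. Among all genes tested, edgeR called 3.14% in CO13N versus CS, 0.973% in the hybrid versus CS, 4.1% in CO13N versus RG11N, 4.47% in the hybrid versus RG11N, 5.77% in RG11N versus CS, 0.255% in the hybrid versus CO13N, 3.92% in the averaged contrast and 0.109% against the parental mean. At these shares a count of 0 among 5 genes does not set the family apart. This gene list and the later ones were chosen with earlier results of these data known, which limits all their calls and p-values. phu, Alp5, Alp8 and Alp11 were thinly covered, with 288, 55, 89 and 212 counts over all 12 libraries. phu had 1.51 CPM ± 0.244 in the hybrid, 0.268 ± 0.0749 in CO13N, 0.812 ± 0.407 in RG11N and 0.462 ± 0.271 in CS. Its lowest hybrid library, replicate 2, had 39 counts (1.305 CPM), as did the highest of the others, RG11N replicate 3 (1.259 CPM). The log2 difference of 2.47 ± 1.45 in the hybrid versus CO13N did not pass the test (edgeR adjusted p = 1).

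NT5E-2 stood in the same way among its relatives. The 5′-nucleotidase genes veil and CG30103 flank it on the same strand, 2883 bp before its start and 525 bp after its end, and neither had a count in any library. The family gene CG42249 reached at most 2.78 CPM in a single library.

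**Figure D3:**
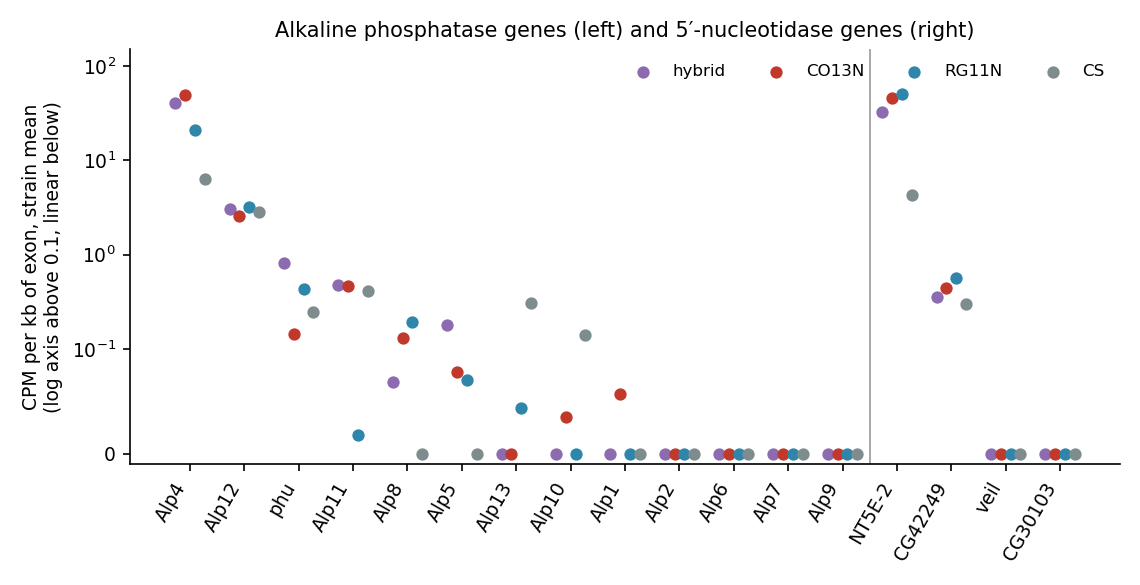
Strain means in CPM per kb of exon for 13 alkaline phosphatase genes (left of the line) and 4 genes of the 5′-nucleotidase family (right), on an axis that is logarithmic above 0.1. Alp4 and NT5E-2 stand above all relatives in each genotype, CS included, and CS is the lowest genotype for both.

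The genes around the members were examined next. Of the 5 annotated genes on either side of Alp4, 6 of 10 were tested, and of those around NT5E-2, 7 of 10. edgeR called 0 of the 6 and 0 of the 7 in each of the 8 comparisons, and with 0.109 to 5.77% of all genes called per comparison these counts are near the background. In a single comparison at most 1 neighbour of each had an unadjusted p under 0.05. voom also called 0, and DESeq2 called 0 around NT5E-2 and 1 gene around Alp4 in each of 3 comparisons. Sox100B, a transcription factor gene, differed by -1.53 ± 0.37 in the hybrid versus CO13N (edgeR adjusted p = 0.145), with 3.63 CPM in the hybrid and 10.5 CPM in CO13N. Chchd3, on the opposite strand 75 bp beyond the end of Alp4, had 83.7 CPM ± 5.27 in the hybrid, 89.8 ± 17.1 in CO13N, 82.1 ± 13.8 in RG11N and 88.5 ± 21.4 in CS. dco, the casein kinase gene of the circadian clock that lies next to it, had 121 CPM ± 19.7 in the hybrid, 120 ± 4.69 in CO13N, 129 ± 6.68 in RG11N and 118 ± 11.6 in CS. Around NT5E-2, the RNA-binding protein gene qkr54B stood at 45.1 CPM ± 3.67 in the hybrid, 49.2 ± 3.64 in CO13N, 58.4 ± 3.49 in RG11N and 46.1 ± 7.42 in CS. CtsK2 stood at 288 CPM ± 27.5, 248 ± 88.6, 232 ± 120 and 200.1 ± 62.2 in the same order. For Chchd3, dco and CtsK2 the CS libraries overlapped those of every other genotype. For qkr54B they overlapped the hybrid and CO13N, and RG11N lay above them. The remaining tested neighbours were lncRNA:CR46117, CanA1, CG11317, Tes, insb, CG43110, nw and CG4853, at 0 to 55.6 CPM over all libraries.

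NT5E-2 acts in extracellular nucleotide and adenosine metabolism. Of 18 other genes of this kind, 12 were tested, and veil, CG30103 and Adgf-E had no count. edgeR called 0 of them in CO13N versus CS (3.14% of all genes were called), 0 in the hybrid versus CS (0.973%) and 0 in RG11N versus CS (5.77%). DESeq2 and voom also called 0 in these 3 comparisons, and 1, 1 and 2 genes had an unadjusted p under 0.05. Their median log2 difference was 0.22 in CO13N versus CS, against 0.01 for all genes, and 0.04 against 0.01 in the averaged contrast. The nucleoside triphosphatase gene NTPase stood at 173 CPM ± 5.93 in the hybrid, 186 ± 17.6 in CO13N, 199 ± 11.5 in RG11N and 155 ± 27.7 in CS. AdoR, the adenosine receptor, was low at 0.862 to 2.61 CPM over the 12 libraries. The adenosine deaminase growth factor genes Adgf-A, Adgf-C and Adgf-D reached 1.09, 6.17 and 2.62 CPM at most, and the deaminase gene Ada 7.18 CPM. Adk2, the list's adenosine kinase gene, stood at 28.9 to 42.8 CPM, and the transporter genes Ent1, Ent3 and CNT2 reached at most 9.71, 39.5 and 5.64 CPM.

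The single call in this list was Ent2, an equilibrative nucleoside transporter. It had 46.6, 44.6 and 41.5 CPM in hybrid replicates 1, 2 and 3 and 39.4, 51.2 and 44.2 CPM in those of CO13N, against 29.1, 21.7 and 22.5 CPM in RG11N and 32.2, 36.4 and 31 CPM in CS. Every selective library lay above every promiscuous one, but the share of all genes that separate the classes in this way was not counted. Ent2 was higher in CO13N versus RG11N by 0.88 ± 0.17 (edgeR adjusted p = 0.00413), in the hybrid versus RG11N by 0.85 ± 0.17 (adjusted p = 0.00442) and in the averaged contrast by 0.65 ± 0.12 (adjusted p = 0.00243). In these comparisons 4.1%, 4.47% and 3.92% of all genes were called, so 1 call among 12 genes is near the background. The 2 pairs share the RG11N libraries.

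Of 13 genes of purine synthesis and salvage, 12 were tested. edgeR called 1 higher in CO13N versus CS (3.14% of all genes), 1 higher in the hybrid versus RG11N (4.47%), 1 lower in RG11N versus CS (5.77%) and 2 higher in the averaged contrast (3.92%), with medians of -0.09 and 0.03 in CO13N versus CS and in the averaged contrast. In the remaining 4 comparisons it called 0, as did DESeq2 and voom, with 0 to 4 genes at an unadjusted p under 0.05. Gart, which encodes an enzyme of several steps of purine synthesis, had 26.6 CPM ± 4.45 in the hybrid, 21.6 ± 1.83 in CO13N, 15.3 ± 2.62 in RG11N and 34.4 ± 7.15 in CS. It was lower in RG11N versus CS by -1.16 ± 0.21 (adjusted p = 0.00162) and higher in the hybrid versus RG11N by 0.79 ± 0.21 (adjusted p = 0.033). The call in the hybrid versus RG11N was not made without hybrid 1, hybrid 3, RG11N 1 or RG11N 3. Nor was it made with these strains fitted alone (edgeR adjusted p = 0.0533).

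The IMP dehydrogenase gene ras stood at 50 CPM ± 2.82 in the hybrid, 54 ± 4.92 in CO13N, 40.6 ± 2.39 in RG11N and 35.8 ± 6.52 in CS. Its log2 difference was 0.59 ± 0.15 in CO13N versus CS (adjusted p = 0.0414), and 0.45 ± 0.11 in the averaged contrast (adjusted p = 0.0239). With 1 library left out at a time, ras stayed called in CO13N versus CS without CS 1, RG11N 2 or RG11N 3 and was lost without any of the other 9. In the averaged contrast it was lost without CO13N 2, hybrid 1, CS 2 or RG11N 2. The AMP deaminase gene AMPdeam, whose enzyme takes AMP to IMP inside the cell, had 162 CPM ± 16.1 in the hybrid, 170 ± 12.9 in CO13N, 135 ± 9.35 in RG11N and 122 ± 19.4 in CS. It was higher by 0.37 ± 0.1 in the averaged contrast (adjusted p = 0.0352), and was not called without CO13N 1, CO13N 3, any of the hybrid libraries, CS 2, CS 3 or RG11N 2. With odorant receptor counts as a covariate, ras differed by 0.43 in CO13N versus CS (adjusted p = 0.573) and by 0.36 in the averaged contrast (adjusted p = 0.208), and AMPdeam by 0.29 (adjusted p = 0.273). The difference of ras in CO13N versus CS was 0.58 with the muscle covariate (adjusted p = 0.0612) and 0.59 with the strains fitted alone (adjusted p = 0.11), and it was not called in either. Adss was not called in any comparison; its lowest adjusted p in a pair was 0.0822 in RG11N versus CS.

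All 10 genes of acid phosphatases and phosphate transport were tested, and the calls came from 3 of them, CG9451, CG9452 and Picot. Since the list was chosen with earlier results of these data known, the shares of all genes below are no fair measure of it. In CO13N versus CS 2 were higher and 1 lower (3.14% of all genes were called), and in the hybrid versus CS 1 was higher (0.973%). In CO13N versus RG11N 2 were higher (4.1%), and in the hybrid versus RG11N 1 was higher (4.47%). In RG11N versus CS 1 was lower (5.77%), and in the averaged contrast 2 were higher (3.92%). The medians of the list were 0.05 in CO13N versus CS and -0.04 in the averaged contrast, against 0.01 for all genes in each. In the hybrid versus CO13N, where 0.255% of all genes were called, edgeR called 0 of the 10 (1 unadjusted, DESeq2 1, voom 0), and against the parental mean also 0 (1 unadjusted, DESeq2 0, voom 0).

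CG9451 and CG9452, neighbouring acid phosphatase genes on chromosome 3L (19498197 to 19500798 and 19501010 to 19503870), made up the higher calls. CG9451 had 433, 439 and 391 CPM in hybrid replicates 1, 2 and 3 and 472, 553 and 490 CPM in those of CO13N, against 320, 226 and 315 CPM in RG11N and 231, 271 and 174 CPM in CS. No selective library overlapped a promiscuous one. Again nothing is read from that, as the share of all genes without such overlap was not counted. CG9451 was higher in CO13N versus CS by 1.16 ± 0.16 (adjusted p = 0.000228), in the hybrid versus CS by 0.9 ± 0.16 (adjusted p = 0.00661) and in CO13N versus RG11N by 0.82 ± 0.16 (adjusted p = 0.00632), and these calls held without any single library.

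CG9452 had 417 CPM ± 89.2 in the hybrid, 451 ± 87.8 in CO13N, 274 ± 20.3 in RG11N and 265 ± 13.8 in CS. Its classes did not overlap either, with the same limit that no share over all genes was counted. It was higher in CO13N versus CS by 0.77 ± 0.16 (adjusted p = 0.00802), in CO13N versus RG11N by 0.72 ± 0.16 (adjusted p = 0.0123) and in the hybrid versus RG11N by 0.6 ± 0.16 (adjusted p = 0.0339). Without CO13N replicate 3 the first and second of these were not called (adjusted p 0.0706 and 0.081). The third was not called without hybrid 1, hybrid 3, RG11N 2 or RG11N 3. Nor was it called with the hybrid and RG11N fitted alone (edgeR adjusted p = 0.0501). The adjoining gene CG9449 was not called in any comparison, with 299 CPM ± 79.1 in the hybrid, 233 ± 50.5 in CO13N, 313 ± 22.9 in RG11N and 335 ± 48.6 in CS. The 3 genes belong to 1 family, and how reads that fit several of them were counted is not stated, so the split among them is uncertain.

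Picot, a phosphate cotransporter gene, went the other way. It had 226 CPM ± 25.8 in the hybrid, 153 ± 19.4 in CO13N, 165 ± 9.81 in RG11N and 299 ± 42.5 in CS. It was lower in CO13N versus CS by -0.96 ± 0.14 (adjusted p = 0.000366) and in RG11N versus CS by -0.86 ± 0.14 (adjusted p = 0.000807). The phosphate transporter gene MFS10 was not called, with a lowest adjusted p in a pair of 0.0899 in CO13N versus RG11N.

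**Figure D4:**
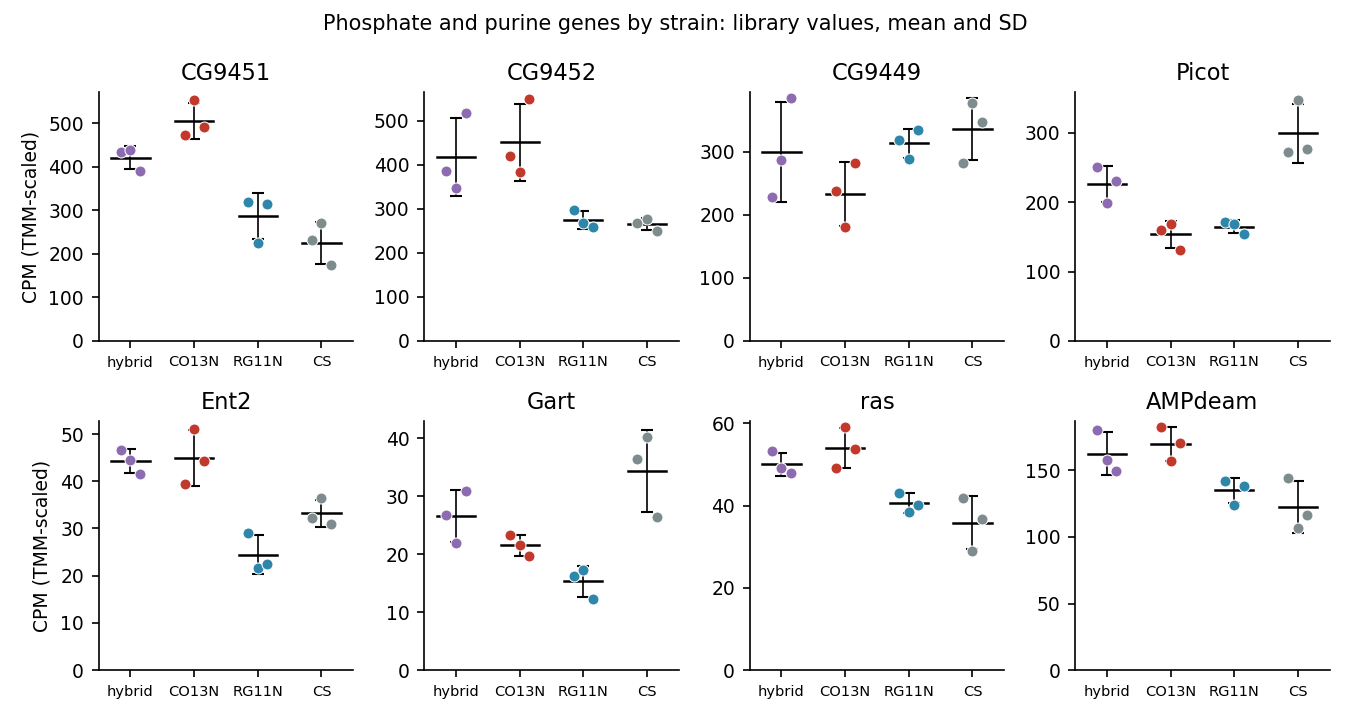
Genes of phosphate handling and purine metabolism in CPM in each library of the hybrid, CO13N, RG11N and CS; points are libraries, bars means and whiskers SD of 3 libraries. CG9451, CG9452, Ent2, ras and AMPdeam have higher means in the hybrid and CO13N than in RG11N and CS. Picot is highest in CS (299 CPM), and CG9449 overlaps between the classes. Panels were picked by low adjusted p or after their values were seen. The share of all genes that separate the classes was not counted, so nothing is read from a separation.

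Genes with the pattern most like each member were taken by the root mean square difference of log2 CPM over the 12 libraries, each gene centred on its own mean, among 8854 other genes. This is a description. For Alp4 they were Acbp2 (0.43 log2 units), Hexo2 (0.46), t (0.54), Mec2 (0.55) and kumpel (0.58). For NT5E-2 they were CG16820 (0.47), Acbp2 (0.6), CG11700 (0.61), Hexo2 (0.72) and CG14183 (0.72). Each member came lower in the other's order, Alp4 at place 12 for NT5E-2 and NT5E-2 at place 60 for Alp4, at a difference of 0.84. Acbp2, an acyl-CoA binding protein gene on chromosome 3L, stood at 114 CPM ± 21.8 in the hybrid, 187 ± 27.3 in CO13N, 118 ± 6.92 in RG11N and 27.8 ± 3.41 in CS. The hexosaminidase gene Hexo2, on the X, stood at 20.7 CPM ± 1.1, 24.8 ± 5.16, 16.3 ± 2.81 and 4.72 ± 0.591 in the same order. CG16820, on chromosome 2L, stood at 17.8 CPM ± 4.33, 35.4 ± 5.18, 25.5 ± 5.25 and 2.93 ± 0.729. The gene t (tan), whose hydrolase frees dopamine and histamine from their beta-alanine conjugates, stood at 192 CPM ± 28 in the hybrid, 199 ± 56.3 in CO13N, 178 ± 52.1 in RG11N and 58.8 ± 11.1 in CS. Mec2 and kumpel had intermediate means in RG11N. Their means were 29.3 and 30.1 CPM in the hybrid and 31.5 and 34.5 CPM in CO13N. In RG11N they were 12.4 and 11.1 CPM, and in CS 3.65 and 5.92 CPM. For kumpel, RG11N (lowest library 5.78 CPM) overlapped CS (highest 7.61 CPM). CG11700 and CG14183 had their highest means in RG11N. Their means were 6.88 and 4.26 CPM in the hybrid and 5.41 and 3.3 CPM in CO13N. In RG11N they were 11.6 and 6.32 CPM, and in CS 1.04 and 0.956 CPM. For CG14183, RG11N (lowest library 4.16 CPM) overlapped the hybrid (highest 6.02 CPM). By strain means alone 1 of the 5 genes chosen for Alp4 was among its nearest 5 and 0 of those for NT5E-2, so the order within these lists is loose.

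Other tissue in the libraries was read from marker genes. The 7 antennal genes summed to 659 to 2272 CPM in the 3 CS libraries, 2298 CPM in replicate 3 of the hybrid and 751 CPM in replicate 3 of RG11N, against 15.6 to 151 CPM in the other 7 libraries. Antennal sums were thus high in all CS libraries, where both members were low. Hybrid replicate 3 held 84.7 CPM of Alp4 and 72.6 CPM of NT5E-2, and RG11N replicate 3 held 52.9 and 106 CPM. With the summed odorant receptor genes as a covariate the differences in CO13N versus CS were 2.91 for Alp4 and 3.37 for NT5E-2 on the log2 scale, against 2.97 and 3.43 without it. With muscle genes, which summed to 1167 to 14793 CPM and varied within every genotype, they were 2.94 and 3.4. Since all 3 CS libraries had high antennal sums, the strain CS and its antennal RNA cannot be told apart.

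The 6 marker genes of the Malpighian tubule, where Alp4 is known, summed to at most 4.7 CPM, and Uro, the most specific of them, had no count. Neuronal genes summed to 4762 to 6109 CPM in the hybrid, 4662 to 5714 CPM in CO13N, 6733 to 7463 CPM in RG11N and 4444 to 5920 CPM in CS. Glial genes summed to 269 to 515 CPM, hemocyte genes to 143 to 240 CPM, and fat body genes to 168 to 296 CPM over all libraries. The hemocyte sum was mostly crq, with 65795 counts against 5467 for Pxn, 1493 for Hml, 260 for eater and 179 for NimC1. The fat body sum was mostly FASN1, with 69034 counts against 3496 for apolpp, 3396 for AkhR, 69 for Fbp1 and 42 for Lsp2. These 2 sums therefore say little about hemocytes or fat body. Tracheal genes summed to 229 to 511 CPM in the hybrid, 183 to 377 CPM in CO13N, 103 to 207 CPM in RG11N and 192 to 271 CPM in CS. Taste hair genes summed to 1069 to 1401 CPM in the hybrid, 1092 to 1653 CPM in CO13N, 2024 to 2183 CPM in RG11N and 1182 to 1836 CPM in CS. Neuronal and taste hair sums were thus higher in each RG11N library than in any other, beside the high NT5E-2 and intermediate Alp4 of RG11N, and their part in those levels was not tested. Of the 6 taste hair genes, ppk23, the channel gene of pheromone-sensing leg neurons, had 792 to 1745 CPM, and Obp57d had no count. The taste hair sum leaned on ppk23, with 465832 counts against 52236 for the next gene, ppk25. The neuronal sum leaned on para, with 1099366 counts against 360034 for the next, cpx. In whole legs a lower count of cells of a type and less RNA per cell cannot be told apart.

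**Figure D5:**
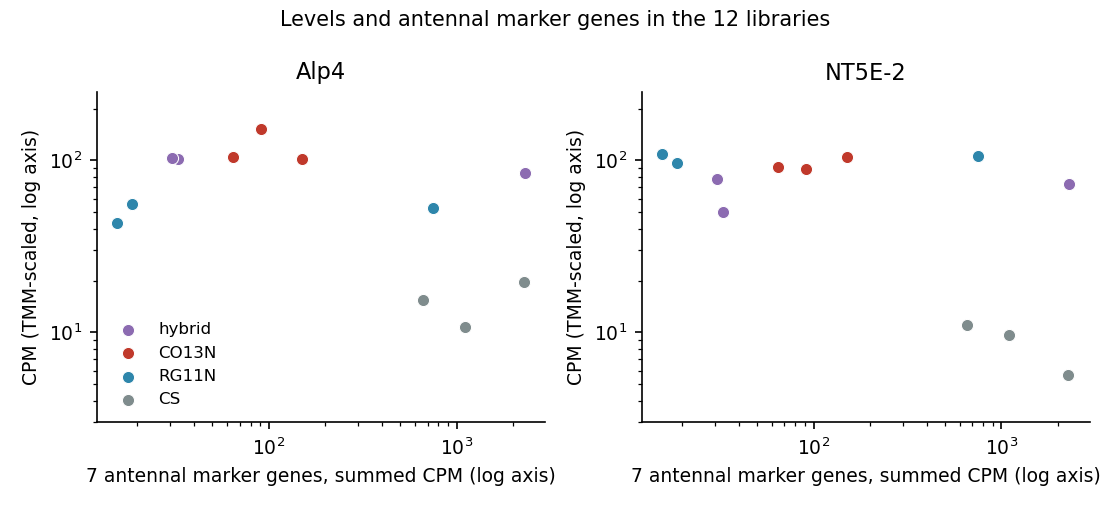
Alp4 (left) and NT5E-2 (right) in CPM against the summed CPM of 7 antennal marker genes, both on log axes, in the 12 libraries coloured by genotype. Hybrid replicate 3 and RG11N replicate 3, with antennal sums of 2298 and 751 CPM, stand at 84.7 and 52.9 CPM of Alp4 and 72.6 and 106 CPM of NT5E-2, and all 3 CS libraries have antennal sums of 659 CPM or more.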

How the data were processed

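The values are raw counts per FlyBase gene as deposited by the authors, 26374831 to 36034966 per library. The tool Subread and the build dm6 are named in the submitters' processing notes; versions, settings, strand, treatment of reads with several matches and the annotation release are not given in the sources used here. Symbols and positions came from Ensembl BDGP6.54.115, the dm6 assembly; 17710 of 17807 identifiers had a symbol.

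edgeR 4.0.16 (R 4.3.3) was fitted to all 12 libraries with TMM normalisation, on the 10996 genes that passed filterByExpr (minimum count 10), 4 strain means (8 residual degrees of freedom) and robust quasi-likelihood F tests, with Benjamini-Hochberg adjustment over all genes tested in a comparison and a threshold of 0.05. The 8 comparisons were the 6 pairs, the mean of CO13N and the hybrid minus that of RG11N and CS, and the hybrid minus the log2 mean of its parents. Standard errors were derived from the F statistics. log2 CPM used a prior count of 2; marker sums used total counts. The pipeline was tested on simulated data. P-values set a difference between strains against the spread between libraries within strains, estimated jointly over the 4 strains.

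The members and lists were chosen with earlier results of these data known. Named were the tested genes of the alkaline phosphatase and adenosine lists, up to 4 per other list by lowest adjusted p in a pair, the 5 neighbours per side (in part) and the 5 most similar genes per member; CG9449 and single marker genes were singled out after their values were seen. Of the listed names, Pnp matched no symbol. Alternatives were RLE, upper quartile and no scaling factors, 2 other filters, DESeq2 1.42.0, voom in limma 3.58.1, a replicate block, covariates, fits to the compared strains alone and leaving out each library. Annotation was joined in Python 3.11.15 and plots were drawn with matplotlib 3.10.9.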

Additional observations from a re-analysis of the deposited data

How the results depend on the processing

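All log2 differences of Alp4 and NT5E-2 kept their sign under every alternative run. With 1 library left out, CO13N versus CS gave 2.75 to 3.2 for Alp4 and 3.2 to 3.62 for NT5E-2. The hybrid versus CO13N moved more for its size, from -0.41 to -0.09 for Alp4 and from -0.61 to -0.33 for NT5E-2. The hybrid's position moved to 0.779 (Alp4) and 0.676 (NT5E-2) on linear CPM, and leaving out 1 library gave 0.875 to 0.966 for Alp4, the highest without CO13N replicate 2, and 0.818 to 0.906 for NT5E-2. Called genes over the 4 lists numbered 4 in CO13N versus CS, 1 in the hybrid versus CS, 3 in the hybrid versus RG11N, 0 in the hybrid versus CO13N and 5 in the averaged contrast. In the hybrid versus CS there were 2 with no scaling factors, no filter, DESeq2, the replicate block and the odorant receptor covariate. In the hybrid versus RG11N there were 5 with DESeq2 and 1 with the strains fitted alone, in the hybrid versus CO13N 1 with DESeq2, and in the averaged contrast 3 with the odorant receptor covariate. Leaving out 1 library gave 2 to 5 in CO13N versus CS (2 without CO13N 3), 1 to 2 in the hybrid versus CS (2 without CO13N 2, CO13N 3 or hybrid 2), 1 to 4 in the hybrid versus RG11N (1 without hybrid 1, hybrid 3 or RG11N 3) and 3 to 5 in the averaged contrast (3 without hybrid 1, CS 2 or RG11N 2). Over all genes, DESeq2 called 645 against 345 in CO13N versus CS, 235 against 107 in the hybrid versus CS, 821 against 451 in CO13N versus RG11N, 841 against 492 in the hybrid versus RG11N, 1047 against 634 in RG11N versus CS, 88 against 28 in the hybrid versus CO13N, 786 against 431 in the averaged contrast and 43 against 12 for the parental mean. The odorant receptor covariate gave 111 in CO13N versus CS, 414 in RG11N versus CS, 15 in the hybrid versus CO13N and 212 in the averaged contrast. RG11N and CS fitted alone gave 355, voom 53 in the hybrid versus CO13N and 2 for the parental mean, and no filter 20 for the parental mean. Leaving out 1 library gave 206 to 372 over all genes in CO13N versus CS, 65 to 122 in the hybrid versus CS, 245 to 524 in CO13N versus RG11N, 264 to 572 in the hybrid versus RG11N, 378 to 756 in RG11N versus CS, 7 to 30 in the hybrid versus CO13N, 288 to 535 in the averaged contrast and 8 to 21 for the parental mean. The lowest counts of the first 6 came without CO13N 2, hybrid 2, CO13N 2, hybrid 3, CS 2 and hybrid 3, and the highest for the parental mean without CS 3. The causes were not tested. Same-numbered libraries of different strains had deviations that correlated at -0.09 to 0.21 across genes (median 0.02). Differently numbered libraries of different strains gave -0.13 to 0.1 (median -0.03). The numbers were not taken as pairs, and the replicate block gave 380 called genes in CO13N versus CS.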
